A study of Homo sapiens with 18 samples.

Results

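The genes of mitosis and of the spindle were followed in 3 leukemia cell lines after *SOX11* siRNA. The list holds 50 genes and was taken by symbol, and each gene is represented by its RefSeq transcript with the highest total count. All 50 were found among the 26941 genes of the count tables, and all 50 were tested in each line. The 3 lines, established from B-cell precursor leukemia (BCP-ALL), were REH, 697 and RCH-ACV. For every line, *SOX11*-specific siRNA had been given to 3 samples and a non-specific control siRNA to 3, at 300 nM by nucleofection, and RNA was taken after 48 h. The sample titles call the first group a knockout, but the treatment was an siRNA, which lowers an mRNA without removing the gene. The samples of a line are described as biological replicates, so the spread between them is that within 1 cell line and not between patients. The question was whether the genes of mitosis moved after *SOX11* siRNA, and whether they moved apart from the genes of S phase.

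A dividing cell makes the proteins of DNA replication in late G1 and S phase and those of mitosis in G2 and M phase. Cyclin B and CDK1 drive entry into mitosis, the kinases PLK1, AURKA and AURKB build and correct the spindle, and the spindle checkpoint holds back the anaphase-promoting complex (APC/C) until every chromosome is attached. Many genes of the late wave are held down in resting cells by the DREAM complex and switched on in G2 by MYBL2 with the MuvB core and by FOXM1. In bulk RNA a gene of the late wave can be higher because more cells are in G2 and M phase or because each such cell holds more of its mRNA, and these cannot be told apart here. All 50 genes were well above the counting limit, with the lowest count of a member in any sample at 97 and the highest at 19240.

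Total counts per sample lay between 7039594 and 16592492, and the members took 0.894% to 1.22% of them. *SOX11* itself was lower with its siRNA in every line, with adjusted p (edgeR's quasi-likelihood test, Benjamini-Hochberg) of at most 0.000221. The fall was 43.6% in REH, 47.0% in 697 and 37.3% in RCH-ACV. Of the markers of the cell type, *PAX5* (740 to 968 CPM, which is the count scaled to library size), *CD79A* (124 to 844 CPM) and *DNTT* were present in all samples, while *VPREB1* was at most 0.1 CPM in REH. *MME*, of the same list, was at 9.59 to 16.6 CPM in RCH-ACV and 35.6 to 62.7 CPM in 697, against 1160 to 1560 CPM in REH. The T-cell markers were at most 0.199 CPM in every sample, with *CD3D* at 0, and *HBB*, of red blood cells, was at 0 too. *MPO* reached 15.5 CPM in REH and *CSF1R* 30.5 CPM in RCH-ACV, both at low level.

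A few libraries stood apart from the rest of their group. In RCH-ACV, *SOX11* siRNA replicate 3 differed from the other two of its group by a root mean square log2 difference of 0.144 to 0.149, against 0.083 between replicates 1 and 2, and from the controls by 0.140 to 0.150. In 697, *SOX11* siRNA replicate 3 and control siRNA replicate 1 were closer to each other (0.146) than to any sample of their own groups (0.156 to 0.196). These same 2 libraries of 697 were low in GC-rich transcripts. The GC tilt, the log2 level of the most GC-rich genes less that of the most GC-poor ones relative to the line, was -0.145 and -0.173 in them and 0.046 to 0.134 in the other four. In REH the within-group distances (0.092 to 0.111) were all below the between-group distances (0.118 to 0.136). Results that rest on these libraries are given with and without them.

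The promoters of these genes are shown first, because they hold the sequence words that the late cell cycle genes are known for. The CHR (cell cycle genes homology region) is the word TTTGAA, bound by the MuvB core, and the CCAAT box is bound by NF-Y. S-phase genes are known for E2F sites, searched here as TTTCCCGC, TTTGGCGC and TTTCGCGC. All words were searched on both strands, in a window of 250 bases before to 50 bases after the start in RefSeq (GRCh38.p14), which held 41 of the 50 members. *AURKA*, *BUB3*, *TTK*, *KNL1*, *TPX2*, *BIRC5*, *FOXM1*, *UBE2C* and *RACGAP1* had no entry. The stretches below end at the base before the start and read along the gene, with CHR words and CCAAT boxes in capitals, either as spelled or as their reverse complement (TTCAAA and ATTGG). A CHR and a reversed CCAAT box can share letters, as in *MKI67*. *CCNB2* (chr15:59105006-59105145, plus strand) and *PLK1* (chr16:23678749-23678888, plus strand) show the usual layout, *KIF11* (chr10:92592990-92593129, plus strand), *PRC1* (chr15:90994536-90994675, minus strand), *MKI67* (chr10:128126424-128126563, minus strand) and *TOP2A* (chr17:40417897-40418096, minus strand, 200 bases) are genes that rose in REH, and *HMMR* (chr5:163460492-163460631, plus strand) fell in RCH-ACV.
CCNB2: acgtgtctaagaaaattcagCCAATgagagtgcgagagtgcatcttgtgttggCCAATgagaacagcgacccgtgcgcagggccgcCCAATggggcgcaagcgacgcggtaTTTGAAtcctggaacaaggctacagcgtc
PLK1: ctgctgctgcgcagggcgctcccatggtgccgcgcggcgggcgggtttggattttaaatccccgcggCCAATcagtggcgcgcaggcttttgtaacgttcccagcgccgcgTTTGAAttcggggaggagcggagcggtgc
KIF11: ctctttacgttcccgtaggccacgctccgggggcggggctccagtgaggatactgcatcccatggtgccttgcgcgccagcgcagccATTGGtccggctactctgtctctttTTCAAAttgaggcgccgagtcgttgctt
PRC1: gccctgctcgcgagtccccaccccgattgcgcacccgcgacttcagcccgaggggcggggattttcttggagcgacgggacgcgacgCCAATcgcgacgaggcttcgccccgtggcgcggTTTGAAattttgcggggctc
MKI67: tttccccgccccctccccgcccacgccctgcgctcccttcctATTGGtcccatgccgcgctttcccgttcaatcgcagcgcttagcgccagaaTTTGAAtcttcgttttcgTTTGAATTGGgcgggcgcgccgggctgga
HMMR: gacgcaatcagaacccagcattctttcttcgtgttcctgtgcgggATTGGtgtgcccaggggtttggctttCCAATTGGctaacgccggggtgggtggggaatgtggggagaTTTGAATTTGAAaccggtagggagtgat
TOP2A: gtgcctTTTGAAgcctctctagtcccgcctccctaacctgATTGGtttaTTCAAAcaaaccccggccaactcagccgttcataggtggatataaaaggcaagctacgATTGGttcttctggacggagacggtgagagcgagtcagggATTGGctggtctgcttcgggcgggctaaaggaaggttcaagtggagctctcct

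Of the 41 member promoters, 29 (70.7%) held a CHR word and 31 (75.6%) a CCAAT box, and 25 (61.0%) held both. Among 15843 protein-coding promoters of the same length the shares were 12.1%, 36.4% and 5.02%. In a second list of 71 mitosis genes, written for comparison, 33 of 58 promoters (56.9%) held a CHR, and in a list of 50 genes of S phase and replication it was 1 of 42 (2.38%). A CCAAT box stood in 36 of 58 promoters of the other mitosis genes (62.1%) and 24 of 42 of the S-phase genes (57.1%). An E2F word stood in 3 of 41 members (7.32%), 4 of 58 other mitosis genes (6.90%), 21 of 42 S-phase genes (50%) and 3.77% of all. Placement was alike among members, since 24 of 41 (58.5%) had a CHR from 60 bases before the start onward, against 3.57% of all promoters. *MYBL2* (chr20:43666974-43667113, plus strand) held none of these words in the window, and the S-phase genes *POLA1* (chrX:24693778-24693917, plus strand) and *E2F1* (chr20:33686386-33686525, minus strand) show CCAAT boxes with an E2F word, also in capitals. In REH 5 of 29 members with a CHR word and 2 of 12 without one (*AURKB* and *MYBL2*) rose after *SOX11* siRNA, against 2.64% of all genes. The median log2 fold change was 0.06626 over the 29 and 0.06635 over the 12. These matches describe the letters and not the binding of a factor.
MYBL2: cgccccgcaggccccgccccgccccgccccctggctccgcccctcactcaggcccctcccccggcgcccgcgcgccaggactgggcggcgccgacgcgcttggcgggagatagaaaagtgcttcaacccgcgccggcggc
POLA1: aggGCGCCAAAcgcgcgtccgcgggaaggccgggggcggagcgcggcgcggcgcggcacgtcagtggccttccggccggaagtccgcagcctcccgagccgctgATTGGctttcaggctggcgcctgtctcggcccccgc
E2F1: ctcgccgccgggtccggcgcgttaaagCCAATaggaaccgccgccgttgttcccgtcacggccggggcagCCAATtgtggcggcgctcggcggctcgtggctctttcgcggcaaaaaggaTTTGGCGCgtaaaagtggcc

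**Figure D1:**
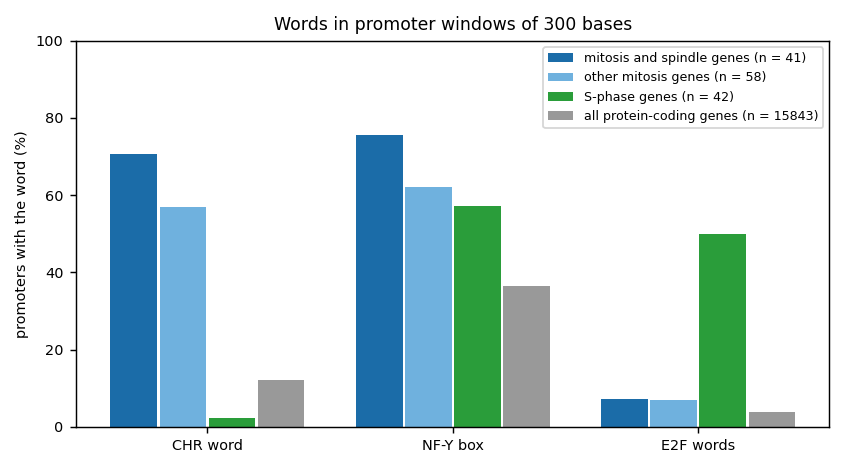
Share of promoters (percent, vertical axis) that hold a CHR word, an NF-Y (CCAAT) box or an E2F word in a window of 300 bases, for 41 mitosis and spindle genes, 58 other mitosis genes, 42 S-phase genes and 15843 protein-coding genes. CHR words stand in 70.7% of the members and 2.38% of the S-phase genes, and E2F words in 7.32% and 50%.

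In REH, 8 of the 50 members rose after *SOX11* siRNA and none fell. They were *MKI67*, *MYBL2*, *AURKB*, *KNL1*, *PRC1*, *NUSAP1*, *KIF11* and *TOP2A*, and the rises were small, from 8.85% to 19.1%. Across all 12787 genes tested by edgeR's quasi-likelihood test, 2.64% were higher and 2.01% lower at an adjusted p under 0.05. At an unadjusted p under 0.05, 25 members were higher and 0 lower, against 8.87% and 7.98% of all genes. DESeq2 called 4 higher and 0 lower, against 1.51% and 0.954% of all genes. A log2 fold change above 0 was found for 44 of 50 members, against 49.0% of all genes, and the median over members was 0.074 (5.27% higher) against -0.0022 over all genes. The groups did not overlap for 25 members that were higher and 1 that was lower (*MAD2L1*), where over all genes the shares were 10.9% and 10.6%. The members had a median of 171.5 CPM in REH controls and a median SE of 0.042, against 35.4 CPM and 0.075 over all genes tested. The part of this higher level and smaller SE in the counts above was not tested.

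Of the 4 genes of transcription and chromosomes, 3 rose. *MKI67* (NM_002417, chr10:129894923-129924687 on hg19, minus strand), which encodes the Ki-67 protein that coats mitotic chromosomes, stood at 529, 607 and 547 CPM in the controls and at 709, 652 and 645 CPM with *SOX11* siRNA. All 3 treated samples were above all 3 controls, a log2 fold change of 0.25 (SE 0.043, adjusted p = 0.000568). *MYBL2* (NM_002466, chr20:42295659-42345135, plus strand), the MuvB-bound activator of G2 genes, was at 314, 309 and 311 CPM in the controls and at 376, 365 and 325 CPM with the siRNA. The third treated sample was much nearer to the controls than the other two (log2 fold change 0.19, SE 0.042, adjusted p = 0.00778). *TOP2A* (NM_001067, chr17:38544777-38574148, minus strand), the topoisomerase that untangles sister chromatids, rose from 1569, 1559 and 1624 CPM to 1694, 1723 and 1754 CPM. That is the smallest of these rises (0.12, SE 0.028, adjusted p = 0.00991), and the groups did not overlap. *FOXM1*, the forkhead activator of the same genes, had 183, 177 and 187 CPM in the controls and 207, 207 and 189 CPM with the siRNA, and missed the threshold (0.14, SE 0.043, adjusted p = 0.0589).

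At the kinetochore, the platform on which microtubules attach, 1 of 7 members rose. *KNL1* (NM_170589, chr15:40886218-40956540, plus strand), the scaffold that recruits the checkpoint proteins, was at 147, 155 and 154 CPM in the controls and at 173, 166 and 173 CPM with the siRNA (0.17, SE 0.041, adjusted p = 0.0138). *CENPF*, a kinetochore protein of G2 and M phase, had 0.050 (SE 0.040, adjusted p = 0.588), with 1 control above all 3 treated samples. All 7 had a log2 fold change above 0, from 0.017 (*CENPE*) to 0.18 (*SPC25*).

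Of the 4 genes of the chromosomal passenger complex, which corrects wrong attachments and then marks the site of division, *AURKB* rose. This gene (NM_004217, chr17:8108051-8113918, minus strand) encodes the kinase of the complex. It was at 101, 101 and 98.3 CPM in the controls and at 120.3, 114 and 107 CPM with the siRNA, so that the groups did not overlap (0.18, SE 0.050, adjusted p = 0.0321). *BIRC5*, *CDCA8* and *INCENP* lay between 0.092 and 0.12 and were not called, each with an unadjusted p under 0.05.

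Of the mitotic kinesins 1 of 7 rose, of the spindle assembly genes 1 of 6, and of the cytokinesis genes 1 of 4. *KIF11* (NM_004523, chr10:94333862-94415152, plus strand), the kinesin that pushes the spindle poles apart, went from 418, 405 and 411 CPM to 443, 442 and 458 CPM (0.12, SE 0.033, adjusted p = 0.0284). *NUSAP1* (NM_016359, chr15:41612992-41673248, plus strand), which bundles spindle microtubules, went from 415, 406 and 413 CPM to 446, 439 and 458 CPM (0.12, SE 0.033, adjusted p = 0.0269). *PRC1* (NM_003981, chr15:91509270-91538859, minus strand), which holds the midzone of the anaphase spindle together, went from 175, 165 and 166 CPM to 189, 188 and 186 CPM (0.15, SE 0.040, adjusted p = 0.024). In none of these genes did a treated sample fall within the control range. Exons of *NUSAP1* and *PRC1* overlap genes on the other strand (*OIP5* and *PRC1-AS1*), and such overlaps exist for 15 members in all. The libraries were stranded, but whether the counting used the strand is not given in the sources used here, so their reads could hold those of the partner.

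The regulators at the core of mitotic entry gave small values that no test called. *CCNB1*, the cyclin B of mitotic entry, had a log2 fold change of -0.033 (SE 0.037, adjusted p = 0.731), with 226, 226 and 234 CPM in the controls and 222, 228 and 222 CPM with the siRNA. *CDK1*, its kinase partner, had the lowest value of all members, -0.060 (SE 0.037, adjusted p = 0.459). *PLK1*, *AURKA* and *TTK*, the kinases of entry, spindle poles and checkpoint, had -0.036, -0.032 and -0.0043, and in each the groups overlapped. *CCNB2* had 0.037, with all treated samples above all controls, and *CCNA2*, the cyclin of S and G2 phase, 0.090 (adjusted p = 0.205). Of the 7 genes of cyclin and CDK control, 3 were higher without overlap of the groups, against 10.9% of all genes. At an unadjusted p under 0.05 also 3 were higher, against 8.87% of all genes, and by neither count was any lower. *CDC20* and *BUB1B*, the APC/C activator and its checkpoint inhibitor, had 0.038 and 0.041, with overlapping groups. Median log2 fold changes by role ran from -0.032 over these 3 kinases and 0.050 over the kinetochore to 0.11 over the passenger complex, 0.12 over cytokinesis and 0.17 over *FOXM1*, *MYBL2*, *TOP2A* and *MKI67*.

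Most of the 8 calls in REH were lost in at least 1 fit that left out 1 library, while all 8 stayed above 0 in every alternative. Only *MKI67* and *TOP2A* were called in all 6 fits that left out 1 library. *AURKB* and *KIF11* were called in 1 of 6 each, *NUSAP1* and *PRC1* in 2, *KNL1* in 3 and *MYBL2* in 4, and the number of members called ranged from 2 to 8. It was 2 and 4 without *SOX11* siRNA replicates 1 and 2, and 5 and 3 without control replicates 2 and 3. The share of all genes called also fell in these fits, to between 2.29% and 4.05%, from 4.65% with all libraries in. In 1 fit over the 18 samples, where 0.77% of genes were called higher in REH, no member was called (lowest adjusted p 0.0729), although 42 of 50 stayed above 0. With each library corrected for GC content, added after seeing the data, 16 members and 4.14% of all genes were called higher. The GC tilt in REH was -0.094 in *SOX11* siRNA replicate 3 and -0.065 in control replicate 1, and between 0.018 and 0.059 in the other four libraries. The sample with -0.094 is the one in which *MYBL2* (60.3% GC) and *AURKB* (56.0% GC) were nearest to the controls, and the part of GC content in these values was not tested beyond that fit.

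**Figure D2:**
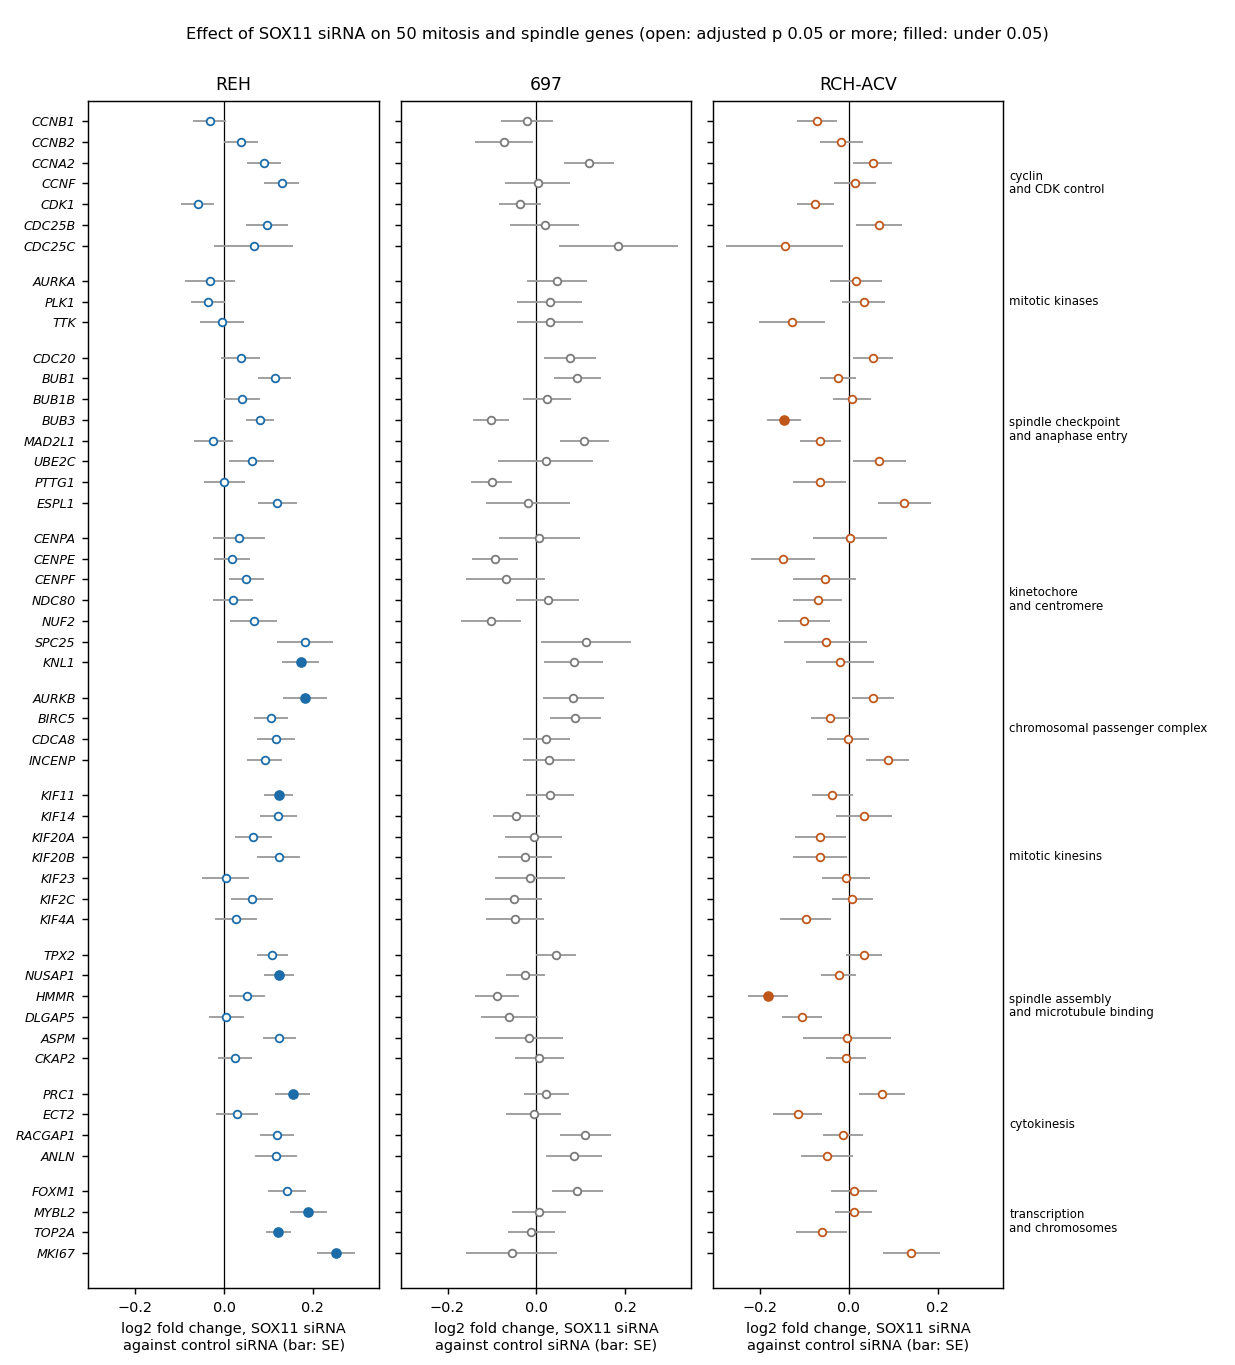
Log2 fold change of *SOX11* siRNA against control siRNA (horizontal axis, bars are standard errors) for 50 mitosis and spindle genes ordered by role, in REH, 697 and RCH-ACV, with filled points at an adjusted p under 0.05. In REH 44 of 50 points lie above 0 and 8 are filled, in 697 none is filled, and in RCH-ACV 2 are filled below 0.

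In 697 none of the 50 members was called by edgeR's quasi-likelihood test or by DESeq2. Across 12169 genes 0.0822% were called higher and 0.477% lower. At an unadjusted p under 0.05 the count was 0 higher and 1 lower, *BUB3*, against 2.96% and 5.28% of all genes, and DESeq2 called 0.0986% of all genes higher and 0.6% lower. The median log2 fold change was 0.0067, against -0.0038 over all genes, and 28 of 50 were above 0. Groups did not overlap for 1 member that was higher (*BUB1*) and 4 that were lower, while 6.15% and 7.81% of all genes did so. *CDC25C*, the phosphatase that activates CDK1, had the highest value (0.18, SE 0.134, adjusted p = 0.84), with 22.2, 20.6 and 15.8 CPM in the controls and 22.1, 24.4 and 20.3 CPM with the siRNA. *NUF2*, a subunit of the microtubule-binding NDC80 complex, had the lowest (-0.10, SE 0.067, adjusted p = 0.804). *MKI67* had -0.056 (SE 0.102), and control replicate 1 was its highest sample at 361 CPM, against 281 and 266 CPM in the other controls and 266 to 311 CPM with the siRNA. *CENPF* followed the same order of controls (868, 717 and 660 CPM). *PLK1* (0.030), *AURKA* (0.046), *TTK* (0.030), *TOP2A* (-0.011), *MYBL2* (0.0056) and *FOXM1* (0.092) were not called either. The median SE over members was 0.061 in 697, against 0.042 in REH and 0.051 in RCH-ACV. Without the 2 libraries that stood apart, an alternative added after seeing the data, no member was called (lowest adjusted p 0.227) where 0.509% of all genes were higher and 1.08% lower, 34 of 50 were above 0 and the median was 0.039.

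In RCH-ACV, 2 of the 50 members fell and none rose. Of 12963 genes tested, 3.59% were higher and 3.92% lower, so the count of members that fell was close to the share of all genes. At an unadjusted p under 0.05, 1 member was higher (*MKI67*) and 3 were lower, below the shares of all genes (11.1% and 11.3%). DESeq2 called none, where it called 2.13% of all genes higher and 2.32% lower. With no filter on low counts *MKI67* was called higher beside the 2 that fell. *HMMR* (NM_001142556, chr5:162887209-162918947, plus strand), a hyaluronan receptor that also binds spindle microtubules, was at 142, 145 and 146 CPM in the controls and at 127, 128 and 126 CPM with *SOX11* siRNA. The groups were far apart for their spread (log2 fold change -0.18, SE 0.045, adjusted p = 0.0196). The exons of *HMMR* overlap the antisense gene *HMMR-AS1*. *BUB3* (NM_004725, chr10:124913918-124929983, plus strand), which brings the checkpoint kinases to the kinetochore, was at 445, 471 and 454 CPM in the controls and at 416, 415 and 406 CPM with the siRNA. Its highest treated sample was below its lowest control (-0.15, SE 0.038, adjusted p = 0.0265). Each of these calls held in only 1 of 6 fits that left out 1 library, the one without *SOX11* siRNA replicate 3. Both held in 1 fit of edgeR over the 18 samples (adjusted p = 0.011 for *BUB3* and 0.0102 for *HMMR*). There 2.49% of all genes were higher and 3.09% lower in RCH-ACV.

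Over all members in RCH-ACV, 19 of 50 were above 0 and the median was -0.018, against 0.0049 over all genes. Groups did not overlap for 3 members that were higher and 7 that were lower, against 12.2% and 13.9% of all genes. *CCNB1* (-0.072), *CDK1* (-0.075), *TTK* (-0.13), *CENPF* (-0.054) and *KIF11* (-0.037) were below 0 without being called, and *PLK1* (0.033), *AURKB* (0.054), *CDC20* (0.054) and *AURKA* (0.016) were above. *MKI67* had the highest value, 0.14 (SE 0.064, adjusted p = 0.204), carried by replicate 3 at 633 CPM, where the other treated samples stood at 507 and 507 CPM and the controls between 488 and 510 CPM.

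The treated replicate that stood apart decided much of the result in RCH-ACV. Its value was the highest of the 6 samples for *ASPM* (296 CPM against 204 and 205 CPM in the other treated samples), *CENPF* (363 against 281 and 289 CPM), *CENPE* (169 against 137 and 130.4 CPM), *KNL1* (151 against 118 and 117 CPM) and *TOP2A* (1085 against 892 and 908 CPM). In these 5 genes the other two treated samples were below all 3 controls. Without that replicate 9 members were lower and none was higher (*ASPM*, *BUB3*, *CENPE*, *CENPF*, *ECT2*, *HMMR*, *KIF20B*, *KNL1* and *TOP2A*), with log2 fold changes from -0.27 (*CENPE*, adjusted p = 3.4e-05) to -0.14 (*BUB3*). In that fit 9.15% of all genes were called higher and 9.8% lower, 16 of 50 members were above 0, and the median was -0.043. The level of *SOX11* itself in this replicate was 86.7 CPM, against 82.0 and 79.2 CPM in the other two and 125 to 137 CPM in the controls. The GC tilt was -0.045 in it, 0.097 and 0.128 in the other two and -0.137 to -0.014 in the controls, and its part in the result was not tested apart from the GC-corrected fit, which kept *BUB3* (adjusted p = 0.0339) and lost *HMMR* (adjusted p = 0.0716), with 4.68% of all genes lower.

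**Figure D3:**
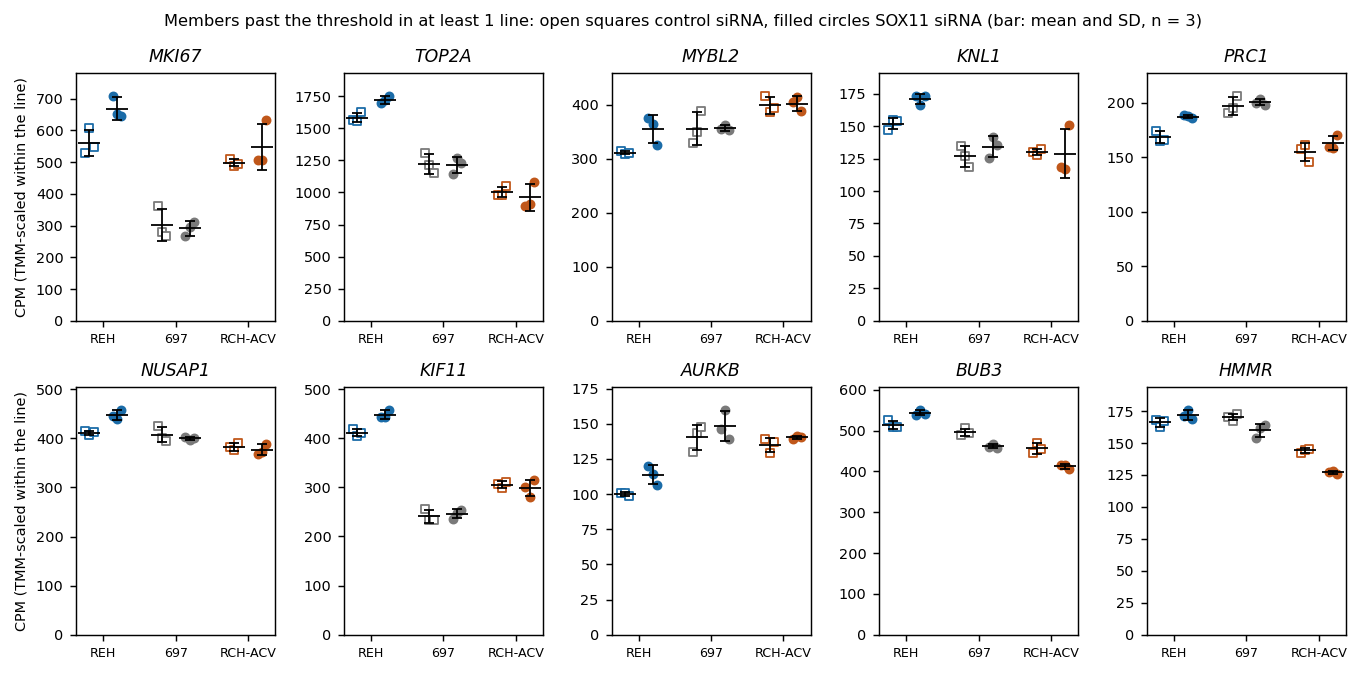
CPM by sample (vertical axis from 0, scaled by TMM within each line, so that levels compare within a line) for the 10 members past the threshold in at least 1 line, with open squares for control siRNA, filled circles for *SOX11* siRNA, and bars for the mean and SD of 3 samples. In REH the filled points of *MKI67* (645 to 709 CPM) lie above the open ones (529 to 607 CPM), and in RCH-ACV 1 filled point of *MKI67* and of *KNL1* lies above the rest.

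The effect of the siRNA was compared between the lines in 1 fit over the 18 samples. The interaction of line and siRNA was called for 1 of 50 members, where 0.734% of 14026 genes were called. That member was *BUB3* (adjusted p = 0.0429), whose log2 fold change was 0.082 in REH, -0.10 in 697 and -0.15 in RCH-ACV. Its controls in REH lay at 508 to 526 CPM and its treated samples at 539 to 551 CPM, and in both other lines all treated samples lay below all controls. Between pairs of lines, REH differed from RCH-ACV by 0.22 (adjusted p = 0.0281) and not detectably from 697 (0.18, adjusted p = 0.174). No other member differed between any pair of lines at an adjusted p under 0.05. For the 8 genes that rose in REH the adjusted p of the interaction lay between 0.434 (*NUSAP1*) and 0.793 (*AURKB*), so a difference of their effect between lines was not shown. The median difference over members was 0.065 between REH and 697 and 0.11 between REH and RCH-ACV, against -0.0024 and -0.010 over all genes.

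Averaged over the 3 lines, 1 member was called higher and none lower, where 2.6% and 3.85% of all genes were. This was *AURKB*, with a common log2 fold change of 0.11 (adjusted p = 0.0429) and values of 0.18, 0.083 and 0.054 in REH, 697 and RCH-ACV. *CCNA2* (0.086, adjusted p = 0.0689), *HMMR* (-0.075, adjusted p = 0.0717) and *PRC1* (0.083, adjusted p = 0.0724) came next without passing. *CENPE* had the lowest common value (-0.075, adjusted p = 0.295), and *CDK1* (-0.059) was below 0 in each line.

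The genes of S phase were counted in the same way. Of 50 genes of S phase and replication, 9 rose and none fell in REH, against 8 and 0 among the members, and the median log2 fold changes were 0.086 and 0.074. Of all genes tested in REH, 2.64% were called higher and 2.01% lower. The groups did not overlap for 25 S-phase genes, all higher, and 43 of 50 were above 0. Over all genes the shares without overlap were 10.9% higher and 10.6% lower, and 49.0% were above 0. *FEN1*, the flap nuclease of Okazaki fragments, rose by 0.20 (SE 0.038, adjusted p = 0.00136), *TK1*, the thymidine kinase, by 0.24 (adjusted p = 0.00193), and *POLA1*, the catalytic subunit of DNA polymerase alpha, by 0.17 (adjusted p = 0.0163). The others called were *CCNE2*, *E2F1*, *DTL*, *RRM2*, *SLBP* and *POLA2*. As with the members the count was not stable. It was 2 without *SOX11* siRNA replicate 2 or control replicate 3, 3 without *SOX11* siRNA replicate 1, 3 with DESeq2, 2 in 1 fit over the 18 samples, and 14 and 16 with no filter and with the GC correction. In 697 no S-phase gene was called by edgeR or DESeq2 (unadjusted p under 0.05 for 1 higher and 2 lower), with a median of 0.015. In RCH-ACV 3 rose and 2 fell, with a median of -0.0068. Of all genes, 3.59% were higher there and 3.92% lower, so the count of falls was close to that share. *RFC5* (0.22, adjusted p = 0.0182) and *TK1* (0.20) were higher, *CCNE2*, the cyclin E of S-phase entry, was lower (-0.33, adjusted p = 0.00167), as was the checkpoint mediator *CLSPN* (-0.27). Without *SOX11* siRNA replicate 3, 6 S-phase genes were higher and 2 lower in RCH-ACV, *CCNE2* (-0.36) and *CLSPN* (-0.34) again being the 2. Of all genes in that fit, 9.15% were higher and 9.8% lower. In 697 without the 2 libraries that stood apart, none was called (lowest adjusted p 0.0649).

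As a description without a test, the mean log2 CPM over each list was set against the mean of the controls of the line. In the REH samples with *SOX11* siRNA the members stood 0.0705, 0.0683 and 0.0712 above the control mean, and the S-phase genes 0.0812, 0.0799 and 0.0652. The controls of REH lay within 0.0099 of their mean for the members and within 0.0111 for the S-phase genes. The difference of the members less the S-phase genes was -0.0106, -0.0117 and 0.0059 in the treated samples and -0.0154 to 0.0198 in the controls, so the treated samples lay inside the control range. In 697 the members ranged from -0.0306 to 0.0499 with the siRNA and from -0.0351 to 0.0401 in the controls. In RCH-ACV the members were at -0.0492 and -0.0533 in treated replicates 1 and 2 and at 0.0338 in replicate 3, while the S-phase genes were between -0.0009 and 0.0112. There the difference was -0.0532 and -0.0524 in replicates 1 and 2, below the range of the controls (-0.0044 to 0.0026). In replicate 3 it was 0.0225, above that range.

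**Figure D4:**
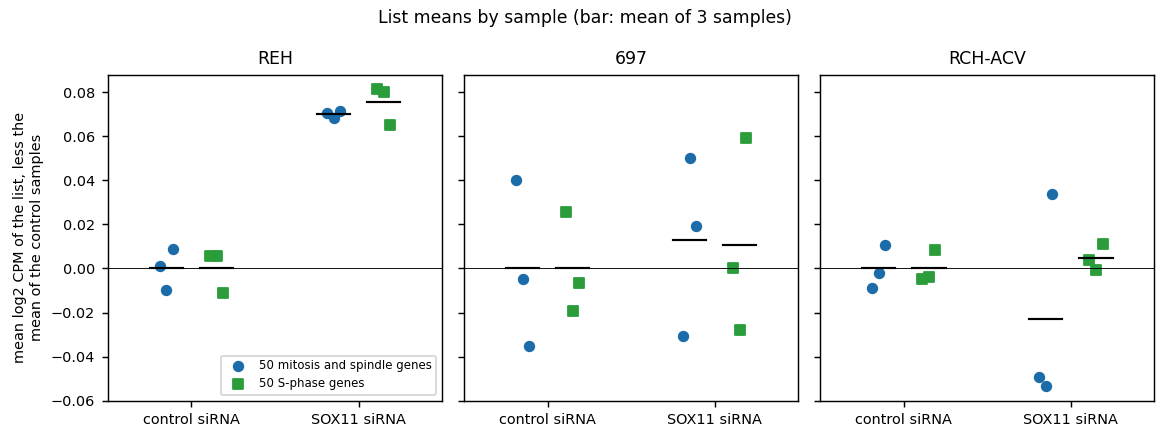
Mean log2 CPM of the 50 mitosis and spindle genes (circles) and of 50 S-phase genes (squares) by sample, less the mean of the control samples of the line, with bars for the mean of 3 samples. In REH both lists stand higher in all treated samples (0.0683 to 0.0712 and 0.0652 to 0.0812), in 697 the groups overlap, and in RCH-ACV 2 treated samples are low for the members (-0.0492 and -0.0533) and 1 is high (0.0338).

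Other genes of the cell cycle were followed through further lists. Of the other mitosis genes, 11 of 70 rose and none fell in REH, with a median of 0.091, led by the condensin subunits *NCAPG2* (0.21, adjusted p = 0.00119) and *NCAPD3* (0.16, adjusted p = 0.00969), which compact mitotic chromosomes, and by *ZWINT* (0.17, adjusted p = 0.0107), a partner of KNL1 at the kinetochore. By edgeR 2.64% of all genes were higher in REH and 2.01% lower. At an unadjusted p under 0.05, 30 of the other mitosis genes were higher and 1 lower, against 8.87% and 7.98% of all genes. DESeq2 called 6 higher and 0 lower, against 1.51% and 0.954% of all genes. In 697 none of 71 was called by edgeR or DESeq2 (unadjusted p under 0.05 for 5 higher and 1 lower). In RCH-ACV 2 of 71 fell, *ARL6IP1* (-0.18, adjusted p = 0.0115) and the kinesin *KIF15* (-0.20, adjusted p = 0.0322), below the share of all genes (3.92%). None was higher, against 3.59% of all genes, and the median was -0.017. At an unadjusted p under 0.05, 4 were higher and 9 lower, against 11.1% and 11.3% of all genes. DESeq2 called 0 higher and 1 lower, against 2.13% and 2.32% of all genes. The 15 subunits of the APC/C, whose level is known to vary little over the cell cycle, were not called in any line by edgeR or DESeq2 with all libraries in, with medians of 0.0017, 0.0037 and 0.015 and 1 unadjusted p under 0.05, in 697.

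Among 19 genes of the MuvB core, DREAM and the cell cycle brakes, 4 rose and 0 fell in REH. Of all genes, 2.64% were higher there and 2.01% lower. *E2F8* (0.31, SE 0.050, adjusted p = 0.000398) and *E2F7* (0.27, adjusted p = 0.00521) encode repressors made in S and G2 phase, and *CDKN2C* (0.22, adjusted p = 0.00555) and *RBL2* (0.15) encode an inhibitor of CDK4 and CDK6 and the p130 protein of DREAM. *E2F8* went from 72.6, 76.8 and 73.2 CPM to 94.7, 90.8 and 90.7 CPM, with no overlap. *NFYB*, a subunit of the factor that binds the CCAAT box, fell in RCH-ACV (-0.26, adjusted p = 0.0106), from 86.7 ± 3.61 to 72.8 ± 3.20 CPM (SD, n = 3). No other gene of this list was called in RCH-ACV by edgeR, where 3.92% of all genes were lower. In 697 no gene of the list was called by edgeR or DESeq2, with 0 at an unadjusted p under 0.05.

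These further lists were also fitted without the libraries that stood apart. In RCH-ACV without *SOX11* siRNA replicate 3, 4 of the 71 other mitosis genes were higher and 9 lower, with *ARL6IP1* (-0.21) and *KIF15* (-0.25) among the lower, and the median was -0.048. Of all genes in that fit, 9.15% were higher and 9.8% lower. *NFYB* was lower there too (-0.27, adjusted p = 0.000936), with 1 gene of its list higher and 2 lower in all. In 697 without its 2 libraries none of the other mitosis genes or of the brakes was called (lowest adjusted p 0.0725 and 0.351). *ANAPC4*, a subunit of the APC/C, was called higher in both of these fits (adjusted p = 0.00928 in 697 and 0.0475 in RCH-ACV). It was the only 1 of the 15 subunits called in either fit, where 0.509% (697) and 9.15% (RCH-ACV) of all genes were higher.

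The level of the members in control cells differed far more between the lines than with the siRNA. In the fit over the 18 samples 44 of 50 members were called between the 3 control groups, a share close to that of all genes (88.7%). The other six were *AURKA*, *KNL1*, *CDCA8*, *KIF23*, *ECT2* and *FOXM1*. REH was higher than 697 for 23 members and lower for 12 (39.5% and 36.1% of all genes), and higher than RCH-ACV for 33 and lower for 9 (36.8% and 36.7%). RCH-ACV was higher than 697 for 10 and lower for 22 (32.9% and 30.8%). The median difference over members was 0.11 for REH less 697 and 0.20 for REH less RCH-ACV, and over the S-phase list it was 0.20 and 0.35.

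*UBE2C*, the E2 enzyme of the APC/C, differed most, at 97.3 CPM in REH, 68.3 CPM in RCH-ACV and 17.3 CPM in 697. The log2 difference between REH and 697 was 2.49. *CENPF* was highest in the line where *UBE2C* was lowest, with 780.5 CPM in 697, 545 CPM in REH and 322 CPM in RCH-ACV. *TTK* stood at 100.0 CPM in REH and did not differ detectably between 697 (49.5 CPM) and RCH-ACV (46.7 CPM, adjusted p = 0.321). *CCNB1* was at 220.5 CPM in REH, 187 CPM in RCH-ACV and 118 CPM in 697, and *PLK1* at 239, 161 and 142 CPM. *MKI67* was at 539.9 CPM in REH and 496 CPM in RCH-ACV, which did not differ detectably (adjusted p = 0.223), and at 316 CPM in 697. *AURKB* and *MYBL2*, both called higher in REH after the siRNA, were lowest in REH controls, with 96.3 and 299.9 CPM against 135 and 398 CPM in RCH-ACV. *FOXM1* was alike at 176, 170.1 and 170.0 CPM in REH, 697 and RCH-ACV (largest log2 difference 0.046).

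**Figure D5:**
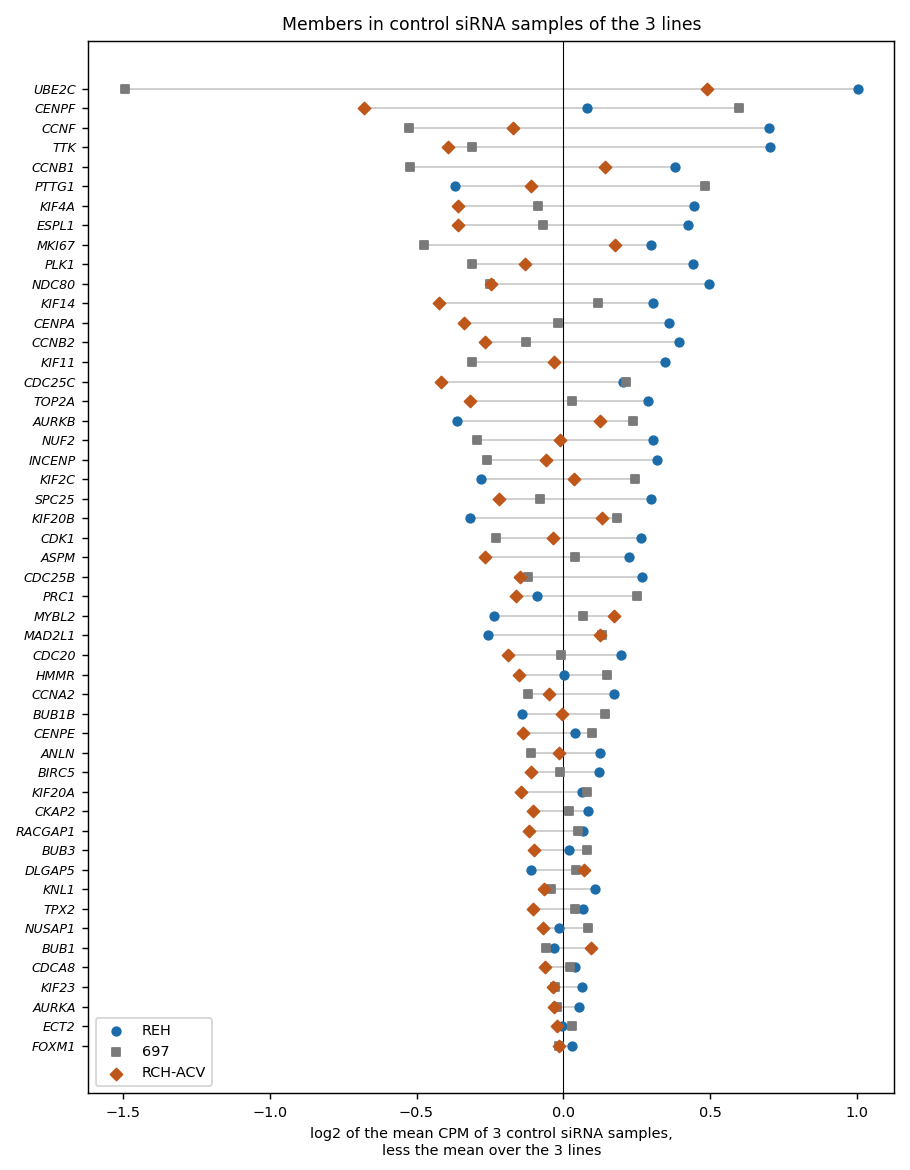
Log2 of the mean CPM of the 3 control siRNA samples of each line less the mean over the 3 lines (horizontal axis) for 50 members, ordered from the widest spread to the narrowest, with circles for REH, squares for 697 and diamonds for RCH-ACV. *UBE2C* spans 2.49 log2 units between REH and 697, and *FOXM1*, at the bottom, 0.046.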

How the data were processed

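The values are raw read counts per RefSeq transcript that the authors deposited, not normalized, with 1 table a line. Per the submitters' processing notes, reads were filtered (FASTX Toolkit, FastQC), mapped by STAR (hg19) and summed per transcript in HOMER. Whether the counting used the strand is not given in the sources used here. The tables were checked to hold whole numbers and 0 columns of other samples. A gene symbol was found for 98.0% of transcripts, and for each gene the transcript with the highest total was kept. The members and all lists were chosen with earlier results of these data known.

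Each line was fitted with edgeR 4.0.16 in R 4.3.3 (TMM, filterByExpr by group, quasi-likelihood F-test, two-sided), with Benjamini-Hochberg adjusted p under 0.05 over all genes tested. Standard errors are the log2 fold change divided by the square root of F. Differences between lines, the common effect and control levels came from 1 fit of 6 groups over the 18 samples. CPM values were scaled by TMM within a line, and across lines for control levels. Transcript GC content is the median over GENCODE transcripts of a gene, and 100 counts on average were needed for the GC tilt. A floor of 3 counts was chosen, which is 0.181 to 0.426 CPM by sample, for counting error only. Values below it, as of some markers, are printed but stand for fewer counts than that.

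The genes described are 16 members chosen for their role, every member called in a line or in the interaction, the highest and lowest member per line, the 3 smallest adjusted p of each other list per line, and *SOX11*. Other values are given where a sentence turns on them and were chosen after they were seen. The alternatives tried were DESeq2 1.42.0, library size alone, RLE size factors, no filter, CPM above 1 in 3 samples, the replicate number as a block, an adjusted p under 0.01, the transcript highest within a line, 1 fit over the 18 samples and each sample left out. Added after seeing the data were a GC correction in 20 bins and 697 without 2 libraries. The fits were tested on data simulated with known changes. Positions are on hg19 from GENCODE, and promoters are RefSeq's (GRCh38.p14). No protein sequences or transcript lengths were used here, so levels are not compared between genes.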

Additional observations from a re-analysis of the deposited data

Results flagged for a closer look

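*BUB3*, the checkpoint adaptor, was singled out because its response to *SOX11* siRNA differed between the lines by the interaction test in edgeR (adjusted p = 0.0429). It was above the controls in 3 of 3 REH samples (log2 fold change 0.082, not called) and below them in 3 of 3 samples of 697 (-0.10, not called) and of RCH-ACV (-0.15, called). The call was lost under the replicate block, with library size alone and in most fits that left out 1 library.

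*CCNE2* (adjusted p = 0.012) and *E2F8* (adjusted p = 0.0436) were the other genes of the cell cycle lists called by the interaction test. They were 1 of 50 S-phase genes and 1 of 19 genes of the brake list, where 0.734% of all 14026 genes were called. Between REH and RCH-ACV alone, *CLSPN* (adjusted p = 0.0404) and *ZWINT* (adjusted p = 0.0405) also differed. In that contrast 54 of all 14026 genes had a higher effect in REH and 36 a lower one. Whether the calls of these genes held under the alternatives was not followed. *CCNE2* rose in REH (0.19) and fell in RCH-ACV (-0.33), with -0.025 in 697, and all treated samples lay above the controls in REH and below them in RCH-ACV. *E2F8* rose in REH (0.31) and had 0.13 in RCH-ACV and -0.068 in 697, with REH and 697 differing (adjusted p = 0.029).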

How the results depend on the processing

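In REH the 8 members called became 3 at an adjusted p under 0.01, 4 with DESeq2, 5 with the replicate number as a block, 16 with the GC correction (chosen after seeing the data), 0 in 1 fit over the 18 samples, and 2 to 8 without 1 library. The median of the members was 0.065 with library size alone and 0.082 with the GC correction, and 0.072 to 0.087 without 1 library, that of the S-phase list 0.076 to 0.099. In RCH-ACV the 2 members became 0 at an adjusted p under 0.01 and with DESeq2, 1 with the GC correction, and 0 to 9 without 1 library, 9 being without *SOX11* siRNA replicate 3, and with no filter they were 3, *MKI67* being called higher. Both stayed called in RCH-ACV in 1 fit over the 18 samples. The median of the S-phase list there was 0.0021 with library size alone and 0.0200 with the GC correction, and -0.0091 to 0.015 without 1 library. In 697 the count was 0 under all alternatives. The 1 member with an interaction became 0 at an adjusted p under 0.01, with library size alone and with the block, and 0 to 1 without 1 library. The 1 member with a common effect became 0 at an adjusted p under 0.01, with RLE size factors and with the block, 3 with library size alone, 2 with no filter, and 0 to 2 without 1 library. The 44 members that differed between control groups stayed within 44 to 48. No called member reversed. Among uncalled members, the sign changed in at least 1 alternative for 9 of the 42 of REH, 22 of the 50 of 697 and 24 of the 48 of RCH-ACV. The deviations of samples with the same number had correlations of -0.247 to 0.265. With 3 samples a group these values cannot show whether such samples came from 1 experiment. The samples are known to share only a number, and the main fits did not pair them. Where the count moved, the cause was not tested. Beyond this, 3 samples a group limit what small changes can show, most in 697, where the SE was largest.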
